A study of Mus musculus with 15 samples.

Results

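The RNA levels of 8 enzymes through which tumors and their stroma are known to restrain T cells were examined by bulk RNA sequencing of 15 mouse renal tumors: *Ido1*, *Il4i1*, *Arg1*, *Nos2*, *Ptgs2*, *Ptges*, *Entpd1* and *Nt5e*. They were chosen by symbol for their known function, though with earlier results of these data known, as were the gene lists below. All 8 were found among the 18279 genes of the deposited table. The tumors grew subcutaneously, after injection in Matrigel, in female BALB/c mice aged 4 to 6 weeks at purchase. They were raised from Renca, a renal carcinoma line that arose in a BALB/c mouse. The 5 control tumors (tumors 1 to 5) were compared with 5 tumors of *Pbrm1* knockout clone 4 (tumors 6 to 10) and 5 tumors of *Pbrm1* knockout clone 18 (tumors 11 to 15). *Pbrm1* encodes a subunit of the PBAF form of the SWI/SNF chromatin remodelling complex. The sample records call the control cells parental, whereas the series describes control knockout cells. The knockout cells received Cas9 and repair plasmids that carry puromycin resistance, were selected with puromycin and were sorted as single cells, so each knockout group is 1 clone. The records say that mice were untreated or received PD-1 antibody without saying which, so treatment could not be told apart here. The 5 tumors of a group are replicate tumors of 1 line, and the p values below measure the spread between such tumors, not between independent lines.

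As background, these enzymes act by removing a nutrient that T cells need or by releasing a product that inhibits them. *Ido1* encodes the interferon-inducible dioxygenase that opens the tryptophan ring to form kynurenine, and *Il4i1* encodes a secreted amino acid oxidase of myeloid and B cells, and products of both can activate the aryl hydrocarbon receptor. *Arg1* and *Nos2* encode arginase and inducible nitric oxide synthase, which compete for arginine in myeloid cells. *Ptgs2* (COX-2) and *Ptges* encode consecutive enzymes of prostaglandin E2 synthesis. *Entpd1* (CD39) and *Nt5e* (CD73) encode cell surface enzymes that convert extracellular ATP through AMP to adenosine.

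The libraries held 32924414 to 49099168 reads on genes, and values are normalized counts, the authors' read counts divided by a size factor per tumor. The targeted gene separated the groups, with *Pbrm1* at 7451.5 to 9870.6 in the control tumors and 2483.8 to 3137.5 in the knockout tumors (log2 difference -1.69, limma adjusted p = 2.94e-11), so its RNA was lower but not absent. The 10 renal epithelial markers checked were all detected, with summed levels of 115141 to 139076 in control and 98858 to 128687 in knockout tumors. The tumors also held stroma: all 10 macrophage markers were present, with summed levels of 81974 to 108191 in control and 58352 to 80601 in knockout tumors. In bulk RNA, fewer cells of a type and less RNA per cell cannot be told apart. Control tumor 1 had the highest T cell score of all tumors (2.00) and clone 4 tumor 10 the highest neutrophil score (1.29). A score is the mean z-score of a marker list across the 15 tumors. Several results that rest on either tumor are also given without 1 or both, or as a range on leaving out 1 tumor at a time.

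Of the 8 enzymes, *Ido1* alone passed the test in the knockout tumors, where it fell, and the other 7 did not pass. The test was limma on log2(normalized count + 1), with Benjamini-Hochberg adjustment over all 18250 genes that were not at 0 throughout, and a gene was called at an adjusted p under 0.05. The share called was 12.5% (1 of 8), against a background of 22.1% of all genes (9.23% higher and 12.9% lower). The median log2 difference of the 8 was 0.04, beside -0.02 over all genes. In clone 4 again *Ido1* alone was called, with a background of 16.8%. With limma, 0 of the 8 were called in clone 18, with a background of 24.7%, and 3 had an unadjusted p under 0.05 there, while edgeR and DESeq2 each called 2. The clone comparisons share the 5 control tumors, and their values are given side by side for that reason only. For none of the 8 were all knockout tumors on one side of all control tumors, a pattern seen for 7.98% of all genes. The intervals were wide, and a missed threshold does not show that an enzyme was unchanged.

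**Figure D1:**
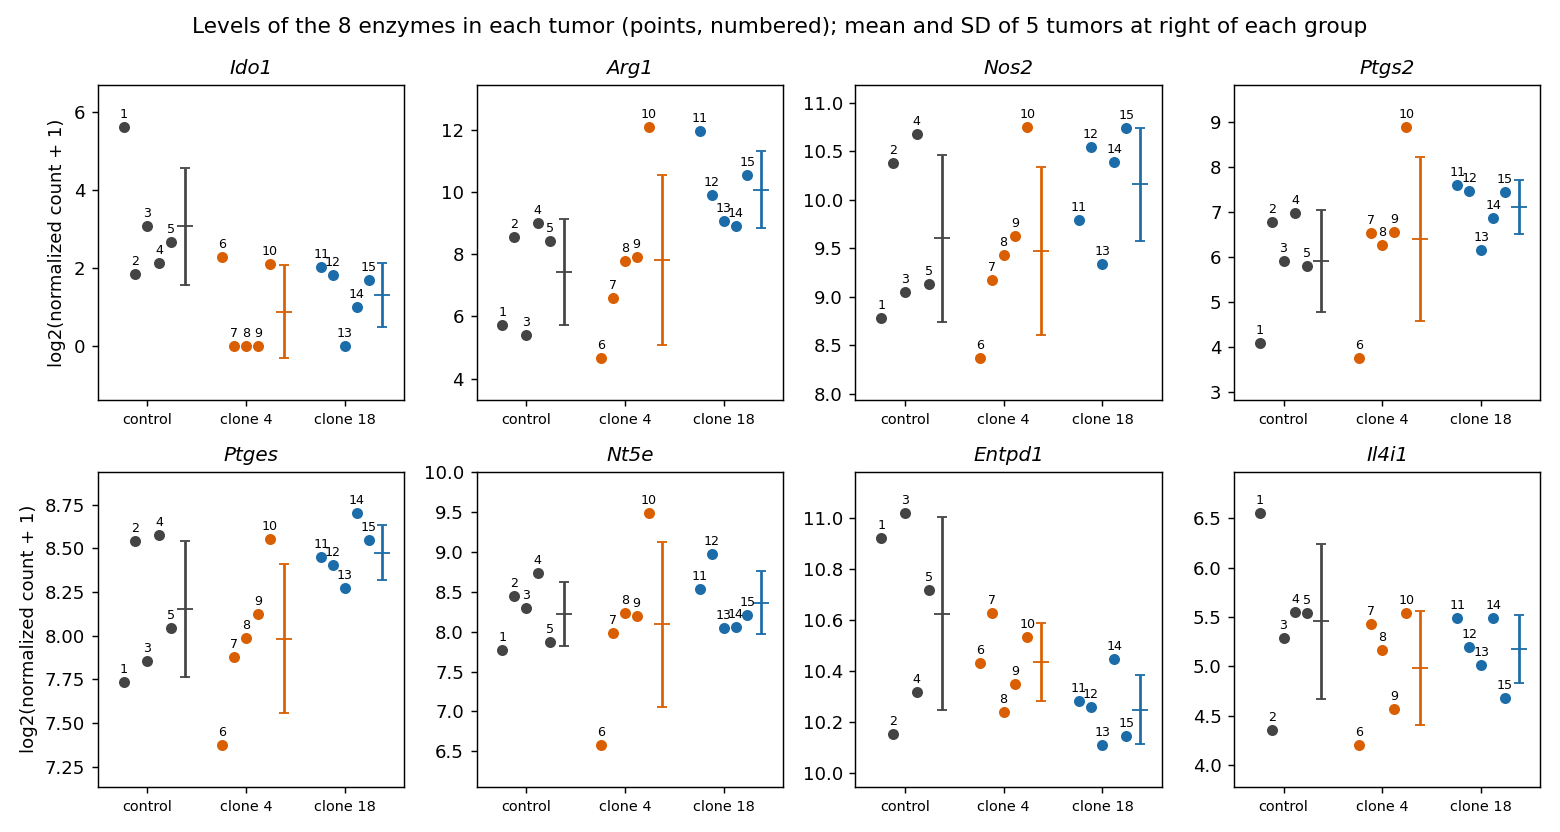
Level of each enzyme in each tumor, on the y axis as log2(normalized count + 1), in control, clone 4 and clone 18 tumors; points carry the tumor number, and the bar beside each group is the mean with the SD of its 5 tumors. Tumor 1 stands above the other control tumors for *Ido1*, and tumors 6 and 10 lie at the ends of clone 4 in most panels.

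**Figure D2:**
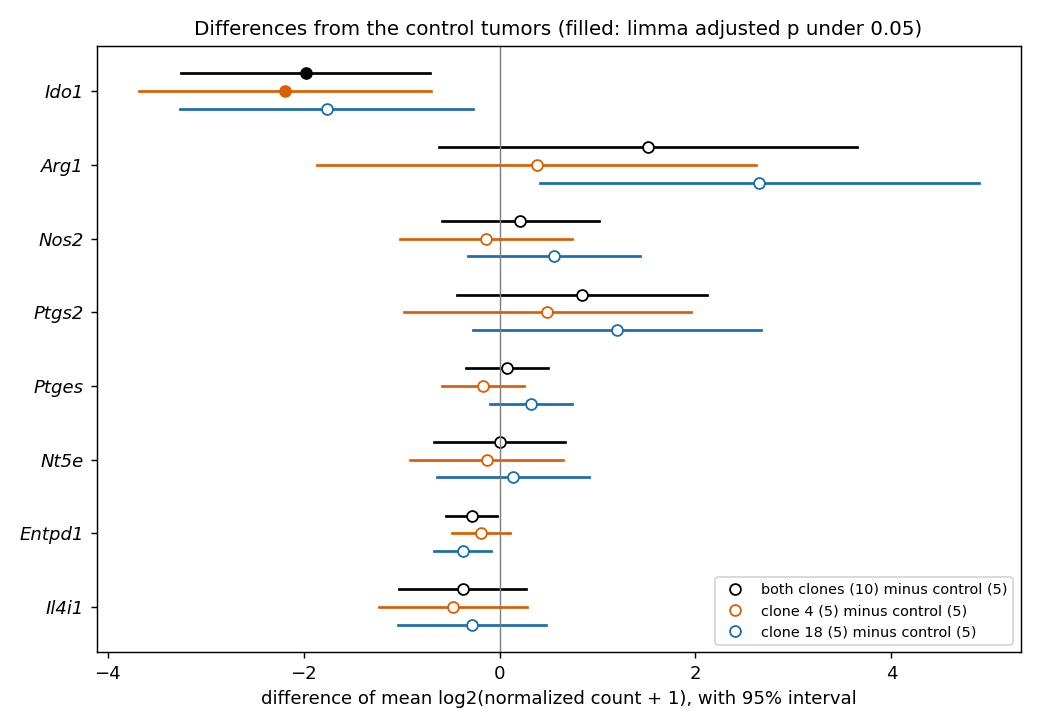
Difference from the 5 control tumors for each enzyme, on the x axis as the difference of mean log2(normalized count + 1), with limma's 95% interval, for both clones together and for each clone; filled points have an adjusted p under 0.05. The filled points are those of *Ido1* for both clones together (-1.98) and for clone 4 (-2.19).

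*Ido1* (chr8:24584136-24597009, minus strand, GRCm38) was the least abundant of the 8. The control tumors had normalized counts of 48.7, 2.6, 7.4, 3.4 and 5.3. Clone 4 had 3.9, 0, 0, 0 and 3.3, and clone 18 had 3.1, 2.5, 0, 1 and 2.2. Tumor 1 was far above all others, and the remaining control tumors overlapped the top of both clones. The 5 control tumors averaged 13.5 ± 19.8 (SD, n = 5), the 10 knockout tumors averaged 1.60 ± 1.57 (SD, n = 10), and the log2 difference was -1.98 (SE 0.60, adjusted p = 0.0254). Clone 4 differed by -2.19 (adjusted p = 0.042), and clone 18 by -1.77 (adjusted p = 0.0792), which is not past the threshold. These values rest on few reads, since the control tumors held 61 *Ido1* reads in all, 42 of them in tumor 1, and the knockout tumors held 15. A tumor with 0 reads still allows up to 3. Without control tumor 1 the difference of the knockout tumors was -1.34 (adjusted p = 0.0957), and without tumors 1 and 10 it was -1.45 (adjusted p = 0.0698). Without control tumor 3 the difference was still -1.98, at an adjusted p of 0.0521. The clone 4 call was lost on leaving out any of 8 of the 15 tumors (adjusted p up to 0.106).

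The tumor with the highest *Ido1* level was also the highest for interferon-induced genes. Its interferon gamma response score, over 12 of 12 genes present, was 2.23, against -0.37 to 0.79 in the other control tumors and -0.98 to 0.28 in the knockout tumors. The summed level of that list was 32749 to 56243 in control and 29213 to 40755 in knockout tumors. The summed T cell markers (8 of 8 present, none at 0 in any group) were 549.5 to 1765.1 in control and 532.7 to 896.2 in knockout tumors. Of these lists, 5 of the 12 interferon gamma response genes and 3 of the 8 T cell markers were called lower in the knockout tumors (41.7% and 37.5%, beside 12.9% of all genes) and none higher. Their part in the *Ido1* result was not tested.

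*Il4i1* (chr7:44816387-44840809, plus strand) was low in all groups. Control tumors had 92.8, 19.4, 38.0, 45.9 and 45.5, clone 4 had 17.4, 42.0, 34.8, 22.8 and 45.7, and clone 18 had 43.9, 35.7, 31.4, 44.1 and 24.6. Tumor 1 was again the highest, and the groups overlapped. The knockout tumors differed by -0.38 (95% interval -1.02 to 0.27, adjusted p = 0.426), with -0.47 in clone 4 and -0.28 in clone 18. Leaving out 1 tumor at a time gave -0.653 to -0.103 in the knockout tumors. In clone 4 it gave -0.75 to -0.2, and in clone 18 -0.556 to -0.006. The gene overlaps *Nup62* on its own strand and *Atf5* and *Tbc1d17* on the other, and whether counting used strand is not given in the sources used here.

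Around these enzymes, 10 of the 14 listed genes of tryptophan uptake and breakdown were measured, and 5 were called in the knockout tumors, 3 higher and 2 lower (50% called, beside 22.1% of all genes, median log2 difference -0.02). *Afmid*, the formamidase that acts directly after *Ido1*, rose from 339.4 to 442.2 in control to 468.8 to 746.7 in knockout tumors with no overlap (0.50, adjusted p = 0.00291). The kynurenine aminotransferases *Kyat1* (0.32, adjusted p = 0.0222) and *Kyat3* (0.25, adjusted p = 0.0128) rose as well, both with overlap. *Kyat1* did not pass in clone 4 (0.30, adjusted p = 0.0733). *Slc7a5*, a chain of the transporter that imports tryptophan and takes kynurenine, fell by 0.40 on the log2 scale with no overlap between groups (adjusted p = 0.00106). *Wars*, the interferon-inducible tryptophanyl-tRNA synthetase, fell by 0.37 (adjusted p = 0.00979), and its clone 4 value alone (-0.27, adjusted p = 0.0788) did not pass. Kynurenine-degrading enzymes *Kmo* (0.07), *Kynu* (-0.44) and *Haao* (-0.09) did not pass. *Afmid* lies across *Tk1* on the other strand and *Gm20708* on its own.

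Of the aryl hydrocarbon receptor genes, 6 of 8 were measured, 2 were called lower and none higher (33.3% called, beside 22.1% of all genes, median -0.34). The receptor *Ahr* itself fell by 0.49 (adjusted p = 0.0357), from 443.0 to 959.7 in control to 353.4 to 642.1 in knockout tumors, with overlap. Its call was lost without control tumor 1 (-0.36, adjusted p = 0.131), without tumors 1 and 10 (-0.37, adjusted p = 0.130) and on leaving out any of 6 further tumors. The target gene *Nqo1*, a quinone reductase also induced by oxidative stress, fell by 0.50 with no overlap (adjusted p = 0.00287). Other targets did not pass, with *Tiparp* at 0.25, *Ahrr* at -1.10 and *Cyp1b1* at -0.17.

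*Arg1* (chr10:24915221-24927484, minus strand) ranged from 24.1 to 4411.3 and was highest in tumors 10 and 11. Control tumors had 52.2, 373.4, 41.7, 517.7 and 346.8 normalized counts. Clone 4 had 24.1, 96.5, 219.8, 238.9 and 4411.3, and clone 18 had 4031.0, 951.1, 540.6, 482.1 and 1493.4. In clone 18, 4 of 5 tumors were above every control tumor, whereas in clone 4 tumor 10 alone was. The highest clone 4 tumor was 183 times the lowest. The log2 difference of both clones together was 1.52 (SE 1.01, 95% interval -0.62 to 3.65, adjusted p = 0.318). Clone 18 differed from control by 2.65 (95% interval 0.41 to 4.89, adjusted p = 0.0785; exact two-sided permutation p = 0.0159, n = 5 and 5, where the smallest possible is 0.00794), and clone 4 by 0.38 (adjusted p = 0.862). The difference of clone 18 from clone 4 was 2.27 (95% interval 0.03 to 4.51, adjusted p = 0.263), beside a background of 4.62% of genes called in that comparison. Of the 8 enzymes limma, edgeR and DESeq2 each called 0 there (edgeR called 4.51% and DESeq2 7.91% of all genes), and 2 had an unadjusted p under 0.05 in limma. Fitted without clone 4, clone 18 was past the threshold for *Arg1* (adjusted p = 0.0251). Without tumor 10 the clone 4 difference turned to -0.69 (adjusted p = 0.628), and clone 18 then differed from clone 4 by 3.35 (adjusted p = 0.0272) and from control by 2.65 (adjusted p = 0.0194). Without clone 4 tumor 6 the last adjusted p was 0.0483.

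*Nos2* (chr11:78920787-78960254, plus strand) was expressed in every tumor and did not separate the groups. Control tumors had 438.7, 1328.2, 529.5, 1637.1 and 561.4, clone 4 had 328.8, 577.2, 688.3, 790.8 and 1725.5, and clone 18 had 886.8, 1496.2, 645.3, 1337.1 and 1707.3. Each group held high and low tumors that overlapped those of the others. The knockout tumors differed by 0.21 (95% interval -0.59 to 1.01, adjusted p = 0.752), with -0.13 in clone 4 and 0.56 in clone 18.

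Of the paralogs, *Nos1* and *Arg2* were called in the knockout tumors and *Nos3* was not. *Nos1*, the neuronal synthase, fell from 246.0 to 1327.3 in control tumors to 5.7 to 61.5 in knockout tumors with no overlap (-4.36, SE 0.43, adjusted p = 1.83e-06), and fell in clone 4 (-4.85) and clone 18 (-3.86). *Nos3*, the endothelial synthase, did not pass (-0.13, adjusted p = 0.634). *Arg2*, the mitochondrial arginase, rose in clone 4, where the 453.9 to 809.1 did not overlap the 321.8 to 410.4 of the control tumors (0.77, adjusted p = 0.00121). In clone 18 it did not pass (0.21, adjusted p = 0.324), and the 2 clones differed (clone 18 minus clone 4 -0.57, adjusted p = 0.0312). Both clones together gave 0.49 for *Arg2* (adjusted p = 0.045), a call lost on leaving out any of 10 of the 15 tumors (adjusted p up to 0.107). *Nos1* shares its locus with *Gm37028* on its own strand and *Gm26995* on the other, and *Arg2* with *Gm48780* and *Vti1b* on the other.

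Per kb of annotated exons, *Nos2* was above *Nos1* in all 15 tumors, by a median of 4.51 times in control, 109 times in clone 4 and 171 times in clone 18. *Arg1* exceeded *Arg2* per kb in 4 of 15 tumors, 1 of clone 4 and 3 of clone 18. The plot of paralogs shows these levels.

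**Figure D3:**
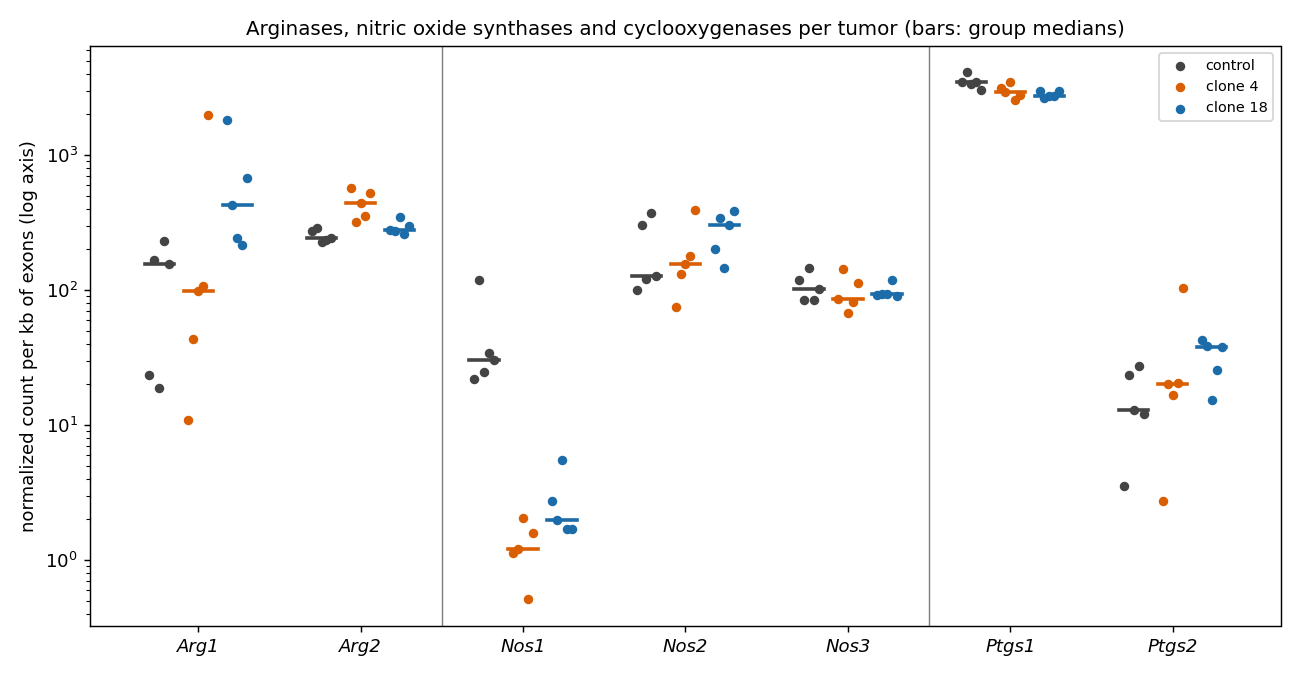
Normalized count per kb of annotated exons (log y axis) of the arginases, nitric oxide synthases and cyclooxygenases, with 1 point per tumor and bars at the medians of the 5 control, 5 clone 4 and 5 clone 18 tumors. *Nos1* is lower in both clones than in control with no overlap, *Nos3* overlaps, and *Ptgs1* lies above *Ptgs2* in all 15 tumors.

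Among all 18 listed genes of arginine use and nitric oxide signalling, 2 were called higher and 3 lower in the knockout tumors (27.8% called, beside 22.1% of all genes, median -0.03), and 3 in all without control tumor 2, 3 or 4. Besides *Nos1* and *Arg2*, *Gch1*, the first enzyme of synthesis of the cofactor tetrahydrobiopterin that nitric oxide synthases need, fell from 4146.5 to 5434.6 to 2249.2 to 3678.5 with no overlap (-0.86, adjusted p = 2.41e-05). *Asl*, which regenerates arginine, rose (0.24, adjusted p = 0.0115), and *Sms*, the spermine synthase, fell (-0.22, adjusted p = 0.0306). *Sms* did not pass in clone 4 (adjusted p = 0.0526) or in clone 18 (adjusted p = 0.0792). *Odc1*, the first enzyme of polyamine synthesis, was higher in clone 4 (0.38, adjusted p = 0.00718) and not in clone 18 (0.03, adjusted p = 0.858), and the difference between the clones passed (-0.35, adjusted p = 0.0312). The nitric oxide receptor subunits, listed under the older symbols *Gucy1a3* (0.00) and *Gucy1b3* (0.08), did not pass.

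*Ptgs2* (chr1:150100031-150108227, plus strand) and *Ptges* (chr2:30889471-30929863, minus strand) are described with the RefSeq promoters of GRCm38.p6, which run from 250 bases before to 50 after the start, because the 2 enzymes varied together among tumors. Capitals mark the hypoxia response core ACGTG on either strand.
*Ptgs2*, chr1:150099781-150100080, plus strand: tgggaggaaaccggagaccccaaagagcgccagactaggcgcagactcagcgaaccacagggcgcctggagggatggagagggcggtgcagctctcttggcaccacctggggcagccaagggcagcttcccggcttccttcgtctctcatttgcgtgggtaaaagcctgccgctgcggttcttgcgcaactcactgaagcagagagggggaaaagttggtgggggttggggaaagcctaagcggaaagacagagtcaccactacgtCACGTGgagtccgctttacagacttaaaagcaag
*Ptges*, chr2:30903248-30903547, minus strand: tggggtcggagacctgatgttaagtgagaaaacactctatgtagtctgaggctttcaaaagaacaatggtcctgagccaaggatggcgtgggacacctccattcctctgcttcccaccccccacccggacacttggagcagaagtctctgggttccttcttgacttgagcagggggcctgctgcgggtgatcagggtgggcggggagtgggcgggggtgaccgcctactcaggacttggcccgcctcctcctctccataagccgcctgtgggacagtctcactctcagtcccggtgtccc
The *Ptgs2* window holds 2 overlapping matches, 1 on each strand, 16 and 17 bases after the start, and the *Ptges* window holds none of the 5 motifs searched. Of all 32851 promoters of this length, 19.6% hold ACGTG on either strand. The other motifs searched were GAS (TTCNNNGAA, in 8.3% of promoters), the ISRE core (3.44%), AP-1 (TGANTCA, 7.81%) and NF-kappaB by name (6.93%), and a match is a description of letters only.

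*Ptgs2* was 16.2, 108.3, 59.3, 125.5 and 55.0 in control tumors, 12.5, 91.7, 76.6, 93.3 and 476.8 in clone 4, and 194.9, 175.9, 70.7, 116.3 and 174.6 in clone 18. In all, 3 clone 18 tumors and tumor 10 were above every control tumor. The knockout tumors differed by 0.84 (SE 0.61, 95% interval -0.43 to 2.12, adjusted p = 0.358), with 1.20 in clone 18 (adjusted p = 0.230) and 0.49 in clone 4 (adjusted p = 0.702), which was -0.14 without tumor 10. *Ptges* was 212.4, 371.7, 230.9, 381.0 and 263.3 in control, 164.9, 234.1, 252.6, 277.6 and 374.3 in clone 4, and 349.0, 338.4, 308.9, 415.0 and 372.8 in clone 18. Its groups overlapped throughout, and clone 18 had the narrowest range. The difference of both clones together was 0.08 (95% interval -0.34 to 0.49, adjusted p = 0.831), and clone 18 was above clone 4 by 0.49 (adjusted p = 0.186). *Gm13400* overlaps *Ptges* on the same strand.

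Of the 17 other prostaglandin genes, 8 were called in the knockout tumors (47.1%, beside 22.1% of all genes), all 8 lower (beside 12.9%), with a list median of -0.29. In clone 4 alone 3 of the 17 were called (17.6%, beside 16.8% of all genes), namely *Ptgds*, *Ptger3* and *Abcc4*, and in clone 18 6 were (35.3%, beside 24.7%). *Ptgs1* (adjusted p = 0.0819), *Hpgds* (0.0617), *Tbxas1* (0.0696) and *Ptger1* (0.063) did not pass in clone 4. Nor did *Tbxas1* (adjusted p = 0.0605) and *Ptger1* (0.0521) pass in clone 18, so they were called in both clones together only. *Ptgs1* (COX-1), the constitutive cyclooxygenase, fell by 0.26 (adjusted p = 0.0177). It was the more abundant cyclooxygenase per kb in all 15 tumors, by a median of 146 times over *Ptgs2* (27 to 1151). *Ptgds*, which makes prostaglandin D2, fell from 51.1 to 517.9 to 2.2 to 23.4 with no overlap (-3.55, adjusted p = 0.000104), and *Hpgds*, the hematopoietic synthase of the same product, fell by 0.73 (adjusted p = 0.00661). *Tbxas1*, the thromboxane synthase, fell by 0.43 (adjusted p = 0.0293). *Hpgd*, which inactivates prostaglandin E2, fell by 1.52 (adjusted p = 0.0312), with -2.36 in clone 18 and -0.69 in clone 4, which did not pass (clone 18 minus clone 4 -1.67, adjusted p = 0.022). *Abcc4*, an exporter of prostaglandins, fell by 0.41 (adjusted p = 0.00794).

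Among the prostaglandin E2 receptors, *Ptger3*, which lowers cyclic AMP, fell from 13571.1 to 17489.0 in control to 3981.9 to 9635.5 in knockout tumors with no overlap (-1.18, SE 0.16, adjusted p = 4.93e-05), by -1.16 in clone 4 and -1.21 in clone 18. *Ptger1* fell by 0.89 (adjusted p = 0.0248). The receptors that raise cyclic AMP, *Ptger2* (-0.17) and *Ptger4* (0.18), did not pass. Without control tumor 1, 5 of the 17 genes were called, and without control tumor 5 also 5, with *Hpgd*, *Ptger1* and *Tbxas1* losing their calls in each case.

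*Entpd1* (chr19:40612366-40741602, plus strand) had the highest median level per kb of the 8 and was not called by limma in either clone. Control tumors had 1938.1, 1136.2, 2071.6, 1274.0 and 1683.3, clone 4 had 1379.0, 1578.6, 1207.5, 1302.8 and 1480.5, and clone 18 had 1244.0, 1224.2, 1103.5, 1396.3 and 1130.7. The control tumors covered the widest range, and 2 clone 18 tumors lay below all of them. The knockout tumors differed by -0.28 (SE 0.12, 95% interval -0.54 to -0.02, adjusted p = 0.116), clone 18 by -0.38 (95% interval -0.67 to -0.08, adjusted p = 0.0569) and clone 4 by -0.19 (adjusted p = 0.408). Clone 18 was past the threshold without control tumor 2 (-0.50, adjusted p = 0.00889), without control tumor 4 (-0.45, adjusted p = 0.029) and without clone 18 tumor 14 (-0.43, adjusted p = 0.0494), and both clones together without control tumor 2 (-0.40, adjusted p = 0.023). With edgeR and DESeq2 on the recovered reads, *Entpd1* and *Ido1* were both called in clone 18, beside backgrounds of 24.9% and 27.4%. *Gm16027*, *Gm8783* and *AC166063.1* overlap *Entpd1* on the same strand.

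*Nt5e* (chr9:88327197-88372092, plus strand), which completes adenosine production, is shown with its RefSeq promoter because it varied with *Ptgs2*. It holds none of the 5 motifs.
*Nt5e*, chr9:88327359-88327658, plus strand: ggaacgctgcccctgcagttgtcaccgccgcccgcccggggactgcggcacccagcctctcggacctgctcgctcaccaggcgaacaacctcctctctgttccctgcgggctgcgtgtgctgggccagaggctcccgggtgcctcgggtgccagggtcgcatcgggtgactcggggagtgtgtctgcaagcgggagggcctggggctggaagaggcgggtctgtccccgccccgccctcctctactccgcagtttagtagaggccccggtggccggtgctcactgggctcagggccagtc
Control tumors had 218.2, 347.9, 314.4, 425.8 and 233.7 normalized counts, clone 4 had 94.5, 252.3, 299.4, 292.4 and 716.3, and clone 18 had 370.4, 504.5, 263.1, 265.6 and 294.4. Tumor 6 lay below all control tumors, tumors 10 and 12 lay above all of them, and the groups overlapped. The difference was 0.00 (SE 0.32, 95% interval -0.67 to 0.67, adjusted p = 0.997), with -0.13 in clone 4 and 0.14 in clone 18.

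Among the 19 other adenosine genes, 2 were called higher and 4 lower (31.6% called, beside 22.1% of all genes, median -0.15). *Adk*, the kinase that removes adenosine by phosphorylation, rose from 5742.3 to 7783.6 to 9683.6 to 15662.5 with no overlap (0.89, SE 0.11, adjusted p = 1.71e-05). *Ada*, the deaminase that removes adenosine by the other route, fell by 0.57 (adjusted p = 0.00307), and *Slc29a1*, the equilibrative nucleoside transporter, fell by 0.39 with no overlap (adjusted p = 0.0014). The low-affinity receptor *Adora2b* rose (0.50, adjusted p = 0.00796), whereas *Adora2a*, the receptor known for inhibiting T cells, was at 22.4 to 60.2 in knockout and had a difference of 0.18 (adjusted p = 0.665). The ATP-gated channels *P2rx4* (-0.28, adjusted p = 0.0102) and *P2rx7* (-0.26, adjusted p = 0.0475) fell. *Adora3* was higher in clone 4 (0.74, adjusted p = 0.0379) and at 0.12 in clone 18 (adjusted p = 0.761).

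**Figure D4:**
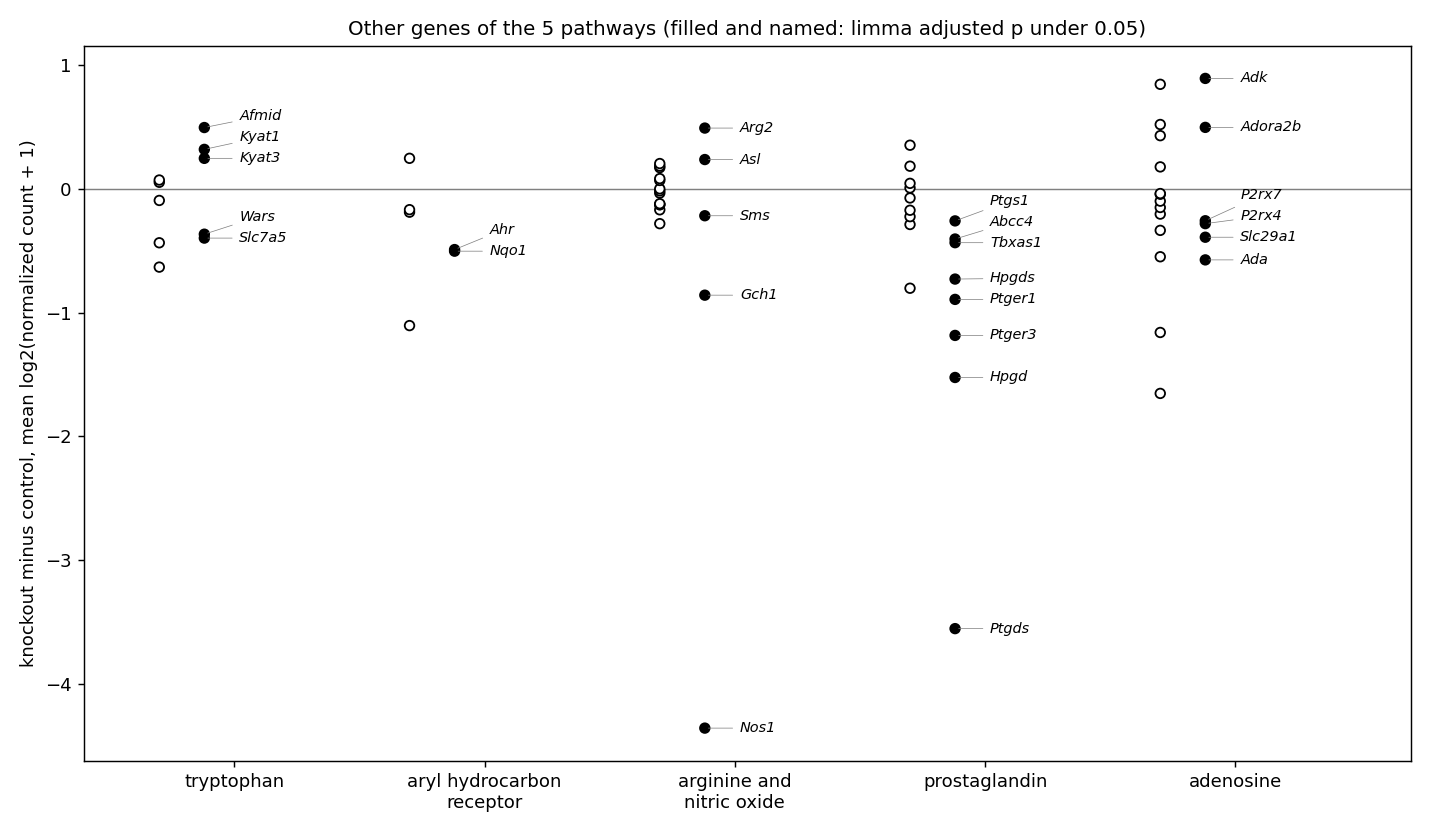
Knockout minus control difference of mean log2(normalized count + 1) on the y axis for the other genes of the 5 pathways, 1 point per gene; filled, named points have a limma adjusted p under 0.05 over all genes. All 8 filled points of the prostaglandin list lie below 0, and *Nos1* (-4.36) and *Ptgds* (-3.55) are the lowest points.

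Compared per kb of exons, the 8 enzymes were ordered by their median over the 15 tumors as *Entpd1* (233), *Nos2* (179), *Arg1* (168), *Ptges* (78.6), *Nt5e* (34.2), *Ptgs2* (20.4), *Il4i1* (9.31) and *Ido1* (1.42). The ranges of all neighbours in this order overlapped. Within tumors, *Ptges* exceeded *Nt5e* in 15 of 15, whereas *Entpd1* exceeded *Nos2* in 9 of 15 and *Nos2* exceeded *Arg1* in 9 of 15, so the first 3 had no fixed order. The exon length is that of all annotated transcripts together, which lowers the value of genes with long alternative exons.

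From tumor to tumor within the groups, 5 of these enzymes moved together. Correlations were taken over the 15 tumors on the log2 scale after subtracting each group's mean, with permutation within groups (100000 permutations, two-sided), for the 7 enzymes with a mean of at least 10. Of the 21 pairs, 10 had an adjusted p under 0.05, and these were all pairs among *Arg1*, *Nos2*, *Ptgs2*, *Ptges* and *Nt5e*. The highest was *Nos2* with *Ptges* (Pearson r = 0.932, permutation p = 0.00017, adjusted p = 0.00357; Spearman rho = 0.929, adjusted p = 0.00462). *Ptgs2* with *Nt5e* had r = 0.921 (permutation adjusted p = 0.0049; rho = 0.882, adjusted p = 0.00546), *Ptgs2* with *Ptges* 0.884 (adjusted p = 0.00525; rho = 0.754, adjusted p = 0.0197) and *Arg1* with *Ptgs2* 0.870 (adjusted p = 0.00752; rho = 0.807, adjusted p = 0.011). The lowest of the 10 was *Arg1* with *Nos2* (r = 0.752, adjusted p = 0.0205; rho = 0.686, adjusted p = 0.038). *Entpd1* and *Il4i1* were in none of the 10 and had r = 0.595 with each other (adjusted p = 0.129).

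The extremes were the same tumors. In clone 4, tumor 10 was the highest and tumor 6 the lowest for 6 of the 7 enzymes each. In control, tumor 4 was the highest for 5 and tumor 1 the lowest for 4, and in clone 18 tumor 13 was the lowest for 5. Correlations given without 2 tumors, here and below, kept the group means of all tumors. They thus still depend in part on the tumors left out. Without the 2 tumors farthest from the median of the first gene, *Nos2* with *Ptges* had r = 0.884 and *Nos2* with *Ptgs2* 0.782. *Ptgs2* had 0.760 with *Ptges* and 0.742 with *Nt5e*. *Arg1* with *Nt5e* dropped to 0.453, *Ptges* with *Nt5e* to 0.477, *Arg1* with *Nos2* to 0.545 and *Arg1* with *Ptges* to 0.633 without tumors 6 and 10.

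**Figure D5:**
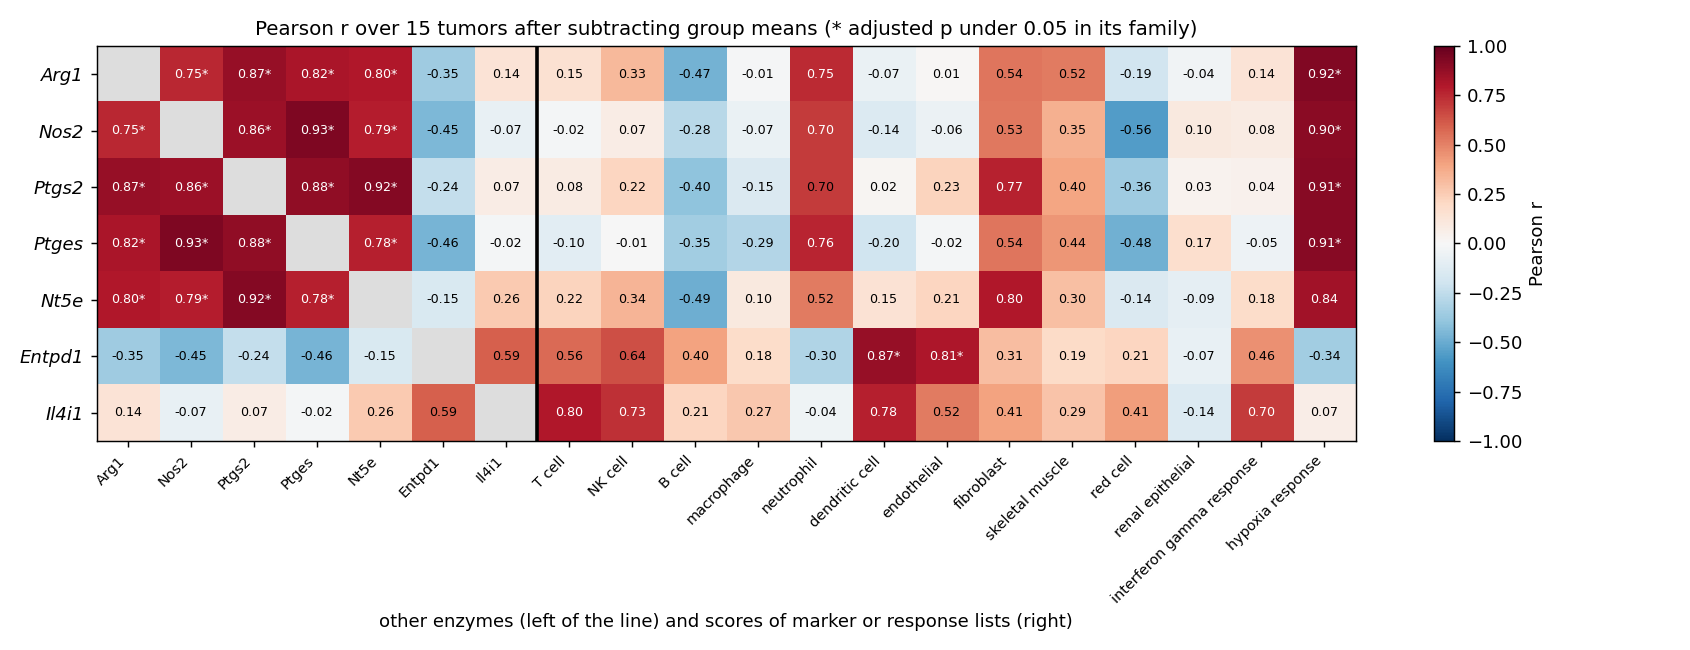
Pearson r over the 15 tumors after subtraction of group means, for each enzyme (rows; *Ido1* is left out for low counts) against the other enzymes and against scores of marker and response lists (columns); asterisks mark a permutation adjusted p under 0.05 within the 21 pairs of enzymes or the 91 pairs with scores. *Arg1*, *Nos2*, *Ptgs2*, *Ptges* and *Nt5e* form a block of positive values from 0.752 to 0.932, and the hypoxia column runs from 0.836 to 0.922 for these 5.

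Of these 5 enzymes, 4 followed a score of 9 hypoxia-induced genes, among them *Vegfa*, *Slc2a1* and *Car9*, all measured. Of 91 relations between 7 enzymes and 13 scores, 6 had an adjusted p under 0.05, and 4 of these were with this score: *Arg1* (r = 0.922, permutation adjusted p = 0.00682), *Ptges* (0.913, adjusted p = 0.00682), *Ptgs2* (0.911, adjusted p = 0.00682) and *Nos2* (0.901, adjusted p = 0.00273). Spearman's rho was 0.886, 0.871, 0.871 and 0.868 in that order (adjusted p 0.01, 0.0116, 0.01 and 0.01). Leaving out the 2 tumors farthest from the enzyme's median gave 0.812, 0.828, 0.772 and 0.829, again with the group means of all tumors. *Nt5e* did not pass, with r = 0.836 (permutation adjusted p = 0.0556), rho = 0.689 (adjusted p = 0.145) and r = 0.531 without tumors 6 and 10. All values of a tumor come from 1 library and 1 size factor. The summed level of the list was 94994 to 145957 in control and 67195 to 153900 in knockout tumors. By this sum, tumor 10 was at the top and tumor 13 at the bottom. By the score, which was used for the correlations, tumor 10 was also the highest (1.557). The lowest score was that of tumor 6 (-1.395), and tumor 13 had -0.454. Of the list's genes, 1 was called higher and 1 lower in the knockout tumors.

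With the neutrophil score none of the 5 passed, at r = 0.747 for *Arg1*, 0.702 for *Nos2*, 0.697 for *Ptgs2*, 0.761 for *Ptges* and 0.519 for *Nt5e* (permutation adjusted p 0.117, 0.117, 0.156, 0.117 and 0.412). Of the 10 neutrophil markers, 8 were measured, with summed levels of 800.8 to 1843.4 in control and 532.2 to 2045.2 in knockout tumors, and *Ly6g* averaged 0.69. Fibroblast markers (9 of 9 present) summed to 55398 to 91902 in control and 21343 to 196207 in knockout tumors, tumors 6 and 10 being the extremes. Their correlation with *Nt5e* was 0.802 (permutation adjusted p = 0.126) and 0.17 without those 2 tumors. Macrophage scores had r between -0.290 and 0.097 with the 5 enzymes. What part hypoxia, neutrophils or fibroblasts have in these levels was not tested.

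*Entpd1* instead followed dendritic cell markers (r = 0.869, permutation adjusted p = 0.00892; rho = 0.843, adjusted p = 0.02) and endothelial markers (r = 0.812, permutation adjusted p = 0.00971; rho = 0.821, adjusted p = 0.0238). Without control tumors 2 and 3 these were 0.847 and 0.682. All 7 dendritic cell markers were present, summing to 1386 to 2890 in control and 1889 to 3481 in knockout tumors, as were all 10 endothelial markers, at 7757 to 15052 and 9381 to 16207. *Il4i1* had its highest values with T cell markers (r = 0.798, permutation adjusted p = 0.0974) and dendritic cell markers (0.778, adjusted p = 0.0556), and neither passed. Without control tumors 1 and 2 these 2 values of *Il4i1* were 0.521 and 0.555.

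Over 16493 genes with a mean of at least 10, the most similar to each enzyme by the same correlation were named as a description. For *Nos2* they included *Slc2a1* (glucose transporter GLUT1, r = 0.950) and *Gys1* (glycogen synthase, 0.946), for *Ptges* *Eno2* (an enolase, 0.951) and *Gys1* (0.946), and for *Ptgs2* they included *Il1r2* (the interleukin-1 decoy receptor, 0.961). *Arg1* was nearest to *Prss46* (0.965) and *Adam8* (0.954), *Nt5e* to *Pcolce2* (0.953) and *Flrt2* (0.949), *Entpd1* to *I830077J02Rik* (0.922), *Phactr2* (0.920) and *Ctsh* (0.920), and *Il4i1* to *Klra2* (0.905), *Gcsam* (0.903) and the T cell receptor component *Cd3d* (0.880).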

How the data were processed

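RNA of 15 Renca tumors was sequenced. The authors aligned reads to mm10 with TopHat2, took gene counts with HTSeq and normalized them with DESeq. The deposited signal is thus a count over a size factor of that library, given to 0.1. Tool versions, annotation, strand setting and gene filters are not given in the sources used here. Every tumor has its own column (0 left unassigned). Within a tumor, 100% of values no higher than 8000 lay within 0.06 normalized counts of a whole number of steps of 0.881 to 1.309. Whole reads were thus recovered, and in tumors 8 and 14 the step is near 1. Depth was 32924414 to 49099168 reads on genes, and reads without molecular identifiers give counting error only. Reads of the 30 pairs of tumors within groups gave a chi-square of 17.7 to 164 per degree of freedom, so none looked like 1 library deposited again. The labels name no batch.

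Of 18279 genes, 29 were at 0 in all tumors and 18250 were tested on log2(value + 1) with limma 3.58.1 with trend, for 10 knockout against 5 control tumors, and in a second fit with 1 term for each of the 3 groups. P values were adjusted by Benjamini-Hochberg at 0.05. Exact permutation tests of single genes were two-sided. Log2 differences understate changes of genes with few reads. Named genes were the 8 enzymes, up to 6 genes of each of 5 pathway lists that were called in both clones together or in either, had a mean of at least 10 and differed most, the paralogs and receptors *Arg2*, *Nos1*, *Nos3*, *Ptgs1*, *Adora2a*, *Adora2b* and *Ahr*, and the 3 genes most like each enzyme. Other genes of the lists (*Kmo*, *Kynu*, *Haao*, *Tiparp*, *Ahrr*, *Cyp1b1*, *Gucy1a3*, *Gucy1b3*, *Ptger2*, *Ptger4*, *P2rx7*, *Abcc4* and *Enpp3*) fall outside this rule and were named after their values were seen. The enzymes and all lists were chosen with earlier results of these data known. *Ido2*, *Tdo2*, *Acmsd*, *Aadat*, *Cyp1a1*, *Cyp1a2* and the markers *Camp*, *Ngp*, *Krt10*, *Krt1*, *Lor* and *Dsg1a* were not analysed here. Scores were mean z-scores over list genes with a mean of at least 10, for markers of renal epithelium, endothelium, fibroblasts, skeletal muscle, red cells, macrophages, dendritic cells, neutrophils and T, B and NK cells and for interferon gamma and hypoxia responses. The keratinocyte list, with 2 of 6 markers measured and neither at a mean of 10, gave no score.

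Alternatives were pseudocounts of 0.1 and 5, a mean of at least 10, upper quartile and quantile scaling, either clone by itself, edgeR 4.0.16 and DESeq2 1.42.0 (on whole reads), limma with no trend, a test with unequal variances, and each tumor left out. Gene positions and exon lengths are from GENCODE M21 on GRCm38, and promoters from RefSeq on GRCm38.p6, which matched 5 of the 8 enzymes. Software was Python 3.11.15 (matplotlib 3.10.9, pandas 2.3.3, scipy 1.17.1, numpy 2.4.6) and R 4.3.3.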

Additional observations from a re-analysis of the deposited data

Results flagged for a closer look

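Of 147 groups of 5 tumors tested for a tumor far from the other 4, 14 were marked, where the nominal rate gives about 7.3. Genes were compared here as normalized counts, not on the log2 scale, and counts are skewed. The chance rate for them is thus not known, and the single values below are reported without explanation. Among the enzymes, *Ido1* was 48.7 in control tumor 1 and 2.6 to 7.4 in the other control tumors. *Arg1* was 4411.3 in clone 4 tumor 10 (others 24.1 to 238.9) and 4031 in clone 18 tumor 11 (others 482.1 to 1493.4). *Ptgs2* was 476.8 in clone 4 tumor 10 (others 12.5 to 93.3).

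Among pathway genes, *Nos1* was 1327.3 in control tumor 2 (others 246 to 383.2) and 61.5 in clone 18 tumor 13 (others 19 to 30.6), and leaving out 1 tumor at a time its knockout difference was -4.542 to -3.935 on the log2 scale. *Asl* was 1454.1 in control tumor 1 (others 1313.3 to 1343.1). *Ahr* was 642.1 in clone 4 tumor 7 (others 506.9 to 537) and *Tbxas1* 432.4 in clone 4 tumor 9 (others 589.6 to 651.7). *Adora2a* was 60.2 in clone 4 tumor 10 (others 26.2 to 35.8) and 56.3 in clone 18 tumor 13 (others 22.4 to 29.5). *Nos3* was 492.2 in clone 18 tumor 14 (others 370.6 to 386.3). Of the marker scores, the B cell score was -0.798 in control tumor 2 (others 0.226 to 0.614) and the renal epithelial score -0.601 in clone 4 tumor 9 (others -0.142 to 0.043).

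The limma test of clone 18 minus clone 4 called 4 of 36 named genes, beside 4.62% of all genes. Most of the named pathway genes were chosen for a call against control, so this count does not measure how far the clones differ. The log2 difference was 0.345 for *Nqo1* (adjusted p = 0.0491), -0.566 for *Arg2* (adjusted p = 0.0312), -0.353 for *Odc1* (adjusted p = 0.0312) and -1.674 for *Hpgd* (adjusted p = 0.022). Of the 8 enzymes, 0 differed between the clones by limma, edgeR or DESeq2, and 2 had an unadjusted p under 0.05 in limma.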

How the results depend on the processing

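With 5 tumors of 1 line per group and few reads on *Ido1*, single tumors moved several values. No paired analysis was possible because the labels give tumors of different groups no number in common. The medians of all genes stayed within 0.1 on the log2 scale under all scalings (-0.019, -0.011 and 0.031). The number of the 8 enzymes called in the knockout tumors, 1 as reported, was 0 in clone 4 alone, with a mean of at least 10 (which leaves out *Ido1*), with quantile scaling, with unequal variances and without tumors 1 and 10, and was 1 in clone 18 alone, where it was *Arg1* in place of *Ido1*. In clone 4 it went from 1 to 0 without trend, with a mean of at least 10, with a pseudocount of 5, with quantile scaling and without tumors 1 and 10. In clone 18 it went from 0 to 2 with edgeR and with DESeq2, and for clone 18 against clone 4 from 0 to 1 without tumors 1 and 10. Leaving out 1 tumor at a time gave 0 to 2 enzymes in the knockout tumors, 0 to 1 in clone 4, 0 to 1 in clone 18 and 0 to 1 between the clones. The tests without tumors 1 and 10 were chosen after seeing the data.

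Of the pathway lists, the aryl hydrocarbon receptor genes went from 2 called to 1 in clone 4 alone, without trend, with unequal variances and without tumors 1 and 10, and the prostaglandin genes from 8 to 3 in clone 4 alone and to 5 with unequal variances. Leaving out 1 tumor at a time gave 4 to 5 called tryptophan genes, 1 to 3 aryl hydrocarbon receptor genes, 3 to 5 arginine and nitric oxide genes, 5 to 8 prostaglandin genes and 5 to 6 adenosine genes. The arginine list had 3 calls without control tumor 2, 3 or 4. *Nos1*, *Gch1*, *Ptgds*, *Ptger3* and *Adk* were called in all 27 alternatives.

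Log2 differences that changed sign were all of enzymes not past the threshold. In the knockout tumors, *Nos2* became -0.134 in clone 4 alone and -0.099 without tumors 1 and 10, *Ptges* -0.17 and -0.062, and *Nt5e* -0.132 and -0.249. In clone 4, without tumors 1 and 10, *Arg1* became -1.119 and *Ptgs2* -0.588, while *Nt5e* became 0.099 with DESeq2 and 0.105 with edgeR. Between the clones *Ptgs2* became -0.022 with DESeq2 and -0.008 with edgeR. Leaving out 1 tumor at a time gave, in the knockout tumors, -0.026 to 0.184 for *Ptges* and -0.136 to 0.187 for *Nt5e*. In clone 4 it gave -0.694 to 1.17 for *Arg1*, -0.455 to 0.143 for *Nos2*, -0.135 to 1.152 for *Ptgs2* and -0.48 to 0.247 for *Nt5e*, and in clone 18 -0.015 to 0.266 for *Nt5e*. Between the clones it gave -0.109 to 0.618 for *Nt5e* and -0.001 to 0.335 for *Il4i1*. The cause of these changes was not tested.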

Other observations

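Without subtraction of group means, the genes most like each enzyme over the 15 tumors were partly others, and those named here were chosen after their values were seen. *Nos2* was nearest to *Dixdc1* (r = 0.941) and then to *Ptges* (0.929), so that these 2 enzymes were among each other's 3 nearest genes of 16493. *Arg1* had *Hmox1* (heme oxygenase 1, 0.954) beside *Adam8* (0.958), *Ptgs2* had the lactate transporter *Slc16a3* (0.931) and the adenylate kinase *Ak4* (0.927), *Ptges* had *Adm* (adrenomedullin, 0.916) and *Entpd1* had the macrophage gene *Mpeg1* (0.941). These values describe 15 libraries, and differences between groups enter them. With group means subtracted, the macrophage score had r = 0.181 with *Entpd1* (permutation adjusted p = 0.805). *Enpp3*, an ectoenzyme that splits extracellular nucleotides, was at 5.8 to 164.7 in control and 7.0 to 44.6 in knockout tumors (log2 difference -1.65, limma adjusted p = 0.0632), and tumor 10 had its highest knockout level, as it had for *Arg1*, *Ptgs2* and *Nt5e*.

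Of the marker lists whose counts were not given above, limma called 5 of 10 macrophage, 2 of 8 neutrophil, 1 of 5 B cell and 1 of 7 dendritic cell markers lower in the knockout tumors (50%, 25%, 20% and 14.3%, beside 12.9% of all genes) and none of these higher, and 1 renal epithelial marker of 10 higher and 1 lower. It called 0 of 6 NK cell markers (1 at an unadjusted p under 0.05, 0 with edgeR, 1 with DESeq2), 0 of 10 endothelial markers (1, 1 and 1 in the same order), 0 of 9 fibroblast markers (0, 0 and 0), 0 of 5 red cell markers (0, 0 and 0) and 0 of the 2 keratinocyte markers measured (0, 0 and 0). Of 6 skeletal muscle markers limma called 0, with 2 at an unadjusted p under 0.05, while edgeR and DESeq2 each called 4. Their sum was 91.7 to 203.1 in control and 70.4 to 1605.2 in knockout tumors. The shares of all genes that edgeR and DESeq2 called in the knockout tumors are not given here. Their counts of markers in this paragraph thus have no background and are not read as a result.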
